A study of Daphnia magna with 16 samples.

Results

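The 150 probes described here were selected on their fluorescence, which was far higher in 2 animals than in the other animals of the same clones. The animals were replicate 5 of the mono-allelic mutant T+ and replicate 5 of the bi-allelic mutant called clone 17 in the sample labels. For each of 51424 gene probes on the array, the deposited normalized value of T+ replicate 5 minus the highest of T+ replicates 3, 7 and 9 was taken, and the same was done in clone 17. Among the 11662 probes that the scanner software marked as well above background on both animals, the 150 with the largest smaller difference were kept. Probes with all 12 mutant arrays on 1 side of all 4 wild type arrays were left out, as were 11 probes given by number, but none of these would have ranked among the 150. The values of T+ and clone 17 are therefore given below as a description, and tests were made only between the wild type and clone 16, whose values had no part in the ranking.

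The study compared whole *Daphnia magna* females of 4 clones, with 4 arrays per clone and the RNA of a single animal on each array. W is clone F (+/+), from which the 3 mutant clones were derived with CRISPR-Cas9 in the tryptophan hydroxylase gene (TRH), each clone being a single line. T+ is clone 13 (+/-), a mutant in a single allele that still makes serotonin. In clones 16 and 17 (-/-) both alleles are mutated, and the study describes them as free of serotonin. The labels give the females' age as 5 days in one field and 4 days in another, while the methods describe adults taken after the reproduction experiment and freed of their broods. No treatment was given to any group, and replicates carry the numbers 3, 5, 7 and 9 in every clone.

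Tryptophan hydroxylase is the rate-limiting enzyme of serotonin synthesis, and serotonin takes part in the control of growth, molting, reproduction and behaviour in arthropods. Daphnia reproduce clonally, so that the females of a clone share their genotype, and an adult molts and releases a brood in each cycle. On a one-colour array, the brightness of a spot measures how much labelled RNA its probe has bound. With whole-body RNA, fewer cells of a type and less RNA per cell cannot be told apart. None of the 150 probes is paired with a gene name or a sequence in the sources used here, so no role can be given to them. They are named by their rank in the list, 1 being the probe with the largest smaller difference, and the probe identifier is printed for 2 of them. How many genes they measure is not known. The probe numbers of 6 pairs of members lay within 8 of each other, and such neighbours may belong to the same gene.

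Values are log2 fluorescence after quantile normalization of the 16 arrays, in which the median of all tested probes was between 7.23 and 7.37 on every array. Between 9869 and 14640 probes per array were well above background, the lowest number being that of W replicate 7. The number of arrays limits the precision of each difference, and p-values measure the spread between single animals. The arrays came from 2 slides, A and B, with 4 positions along a slide, and the slide of W replicate 7 is not given in its file. The other arrays fill slide A and leave a place free on slide B, which matches the spot coordinates of W replicate 7. It was nevertheless handled as an array of unknown slide. T+ replicate 5 and clone 17 replicate 5 stood apart from the rest of their clones, and both lay at slide position 4. The other arrays at that position were clone 16 replicate 5 and W replicate 7, the latter placed by its spot coordinates. The local background around the members' spots was within 1 unit of that of the whole array on all 16 arrays, and their 163 spots were spread over the array, with 30 to 49 spots in each of 4 equal blocks of rows and 32 to 48 in each of 4 equal blocks of columns.

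The list was not bright in the 2 outlying animals alone. The 4 females of clone 16, which the ranking did not use, were bright as well, with a median over members of 11.04, 10.96, 10.45 and 11.13 in replicates 3, 5, 7 and 9. In T+ replicate 5 and clone 17 replicate 5 the median was 10.47 and 11.12. In the other 3 animals of T+ it was 3.90, 3.86 and 4.35, and in those of clone 17 it was 5.99, 3.88 and 3.87. In W replicates 3, 5, 7 and 9 the median was 5.99, 8.09, 8.89 and 5.34, so that replicates 5 and 7 lay between the bright and the dim animals and replicates 3 and 9 at or below clone 17 replicate 3. In 116 of the 150 members the 4 animals of clone 16 and the 2 outlying animals were all above each of the other 10 animals. The part of this order that lies within T+ and within clone 17 was fixed by the choice of members. The share of all tested probes in this order was not counted.

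**Figure D1:**
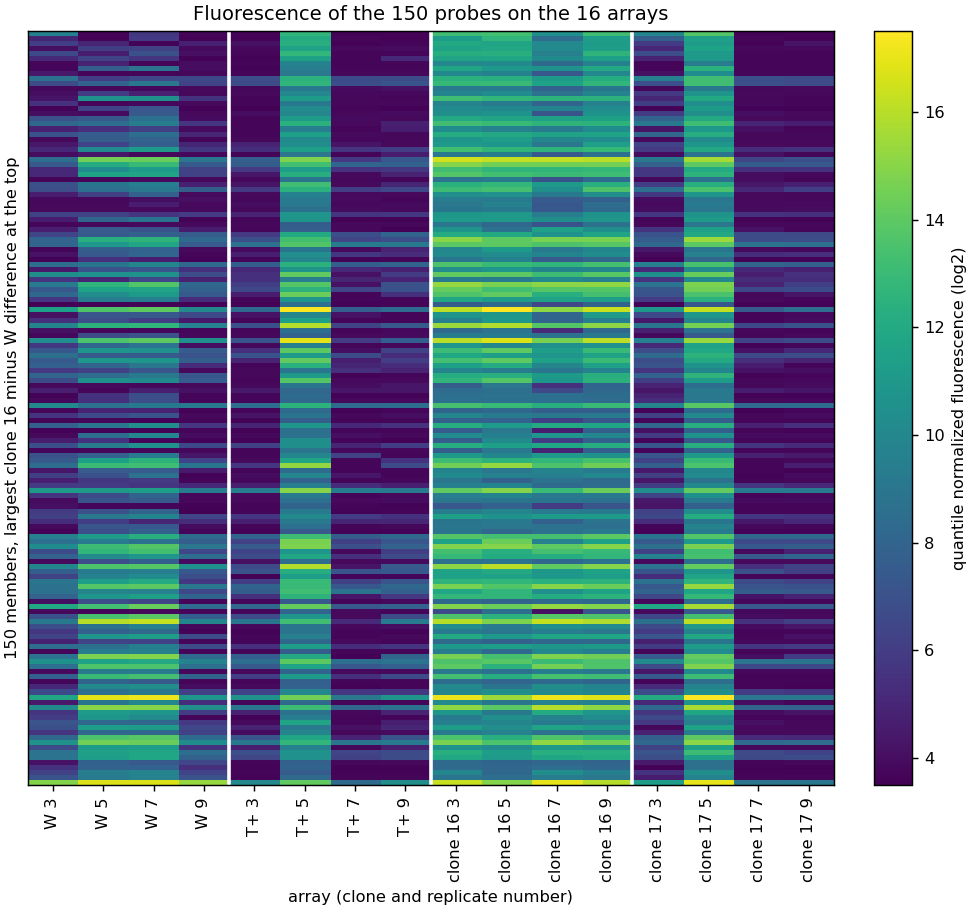
Log2 quantile normalized fluorescence (colour) of the 150 members (vertical axis, ordered by the difference between the means of clone 16 and W) on the 16 arrays (horizontal axis, clone and replicate number). The 4 columns of clone 16 and those of T+ 5 and clone 17 5 are bright for nearly the whole list, W 5 and W 7 are bright for part of it, and the remaining T+ and clone 17 columns are dark.

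The differences that chose the members were large. T+ replicate 5 exceeded the highest of the other T+ animals by 3.58 to 9.94, with a median of 5.08, and clone 17 replicate 5 exceeded the highest of the others of its clone by 3.58 to 8.74, with a median of 4.88. The smaller of both differences had a median of 4.29 and was 7.02 for the member of rank 1. Only 3546 of the 11662 probes that could be ranked were higher in both outlying animals than in all others of their clones. The list ends within a dense series of values. In T+ and clone 17, the differences were 5.13 and 3.58 for the member before the last and 3.69 and 3.58 for the last, and for the next 2 probes in the ranking, which were left out, they were 5.86 and 3.54 and then 3.54 and 3.79.

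Against the brightness of all tested probes, the members ranked near the top in the animals where they were high and near the middle in 5 of the 6 dim T+ and clone 17 animals. Their median lay at the 95.1 to 96.6 percentile of tested probes in clone 16 and in the 2 outlying animals. It lay at the 49.1 to 61.2 percentile in T+ replicates 3, 7 and 9 and at the 50.4 and 52.1 percentile in clone 17 replicates 9 and 7, while clone 17 replicate 3 had 74.3. For W replicates 3, 5, 7 and 9 it was 74.3, 86.8, 90.2 and 69.4. Many members could not be measured in the dim animals. In T+, 108 members were well above background on replicate 5 only, and in clone 17 the number was 75. On the 6 dim arrays of these clones, 75 members were well above background on none and 25 on all. In clone 16, 145 members were well above background on all 4 arrays and the other 5 on 3.

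**Figure D2:**
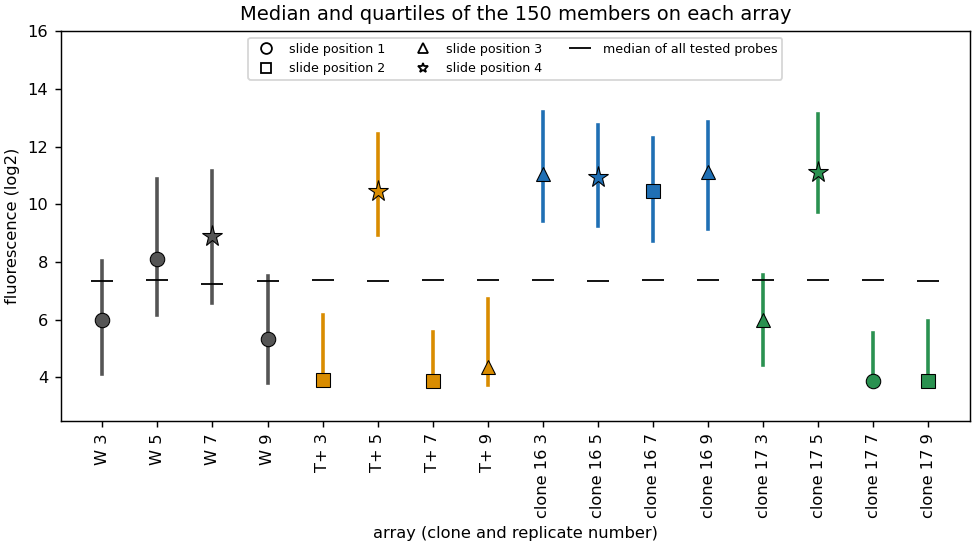
Median (symbol) and quartiles (vertical line) of the log2 fluorescence of the 150 members on each array, with the slide position given by the symbol's shape, and the median of all tested probes as a horizontal bar. The 4 arrays of clone 16 lie between 10.45 and 11.13 at slide positions 2, 3 and 4, while the arrays at position 4 run from 8.89 in W 7 to 11.12 in clone 17 5.

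Within clone 17, replicate 3 was intermediate, and it was above both replicates 7 and 9 in 123 members. Relative to the mean of W, the median member differed by -2.32, -2.30 and -2.30 in T+ replicates 3, 7 and 9 and by -1.07, -2.31 and -2.32 in clone 17 replicates 3, 7 and 9. Against this, it was higher by 3.41 in T+ replicate 5 and by 3.94 in clone 17 replicate 5, the animals whose high values chose the members. The mean of a mutant clone therefore described none of its animals in T+ and clone 17. In T+ the mean of 48 members was above that of W, with a median difference of -0.95, and in clone 17 that of 60 members, with a median difference of -0.44. The dim animals were below every W animal in 98, 92 and 82 members in T+ replicates 3, 7 and 9 and in 41, 92 and 89 members in clone 17 replicates 3, 7 and 9, and 34 members were below W in all 6. The choice of members required these 6 animals to be below the outlying animal of their clone. Many members were not well above background in them, and 30 were well above background on no W array, so part of these orders can rank background signal. The share of all tested probes in each order was not counted.

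Clone 16 was compared with W to ask how a clone whose values had no part in the choice stood to the wild type. The mean of clone 16 was above that of W in all 150 members, whereas it was so in 65.2% of the 17286 tested probes and in 67.4% of the 11659 tested probes that were well above background on both outlying animals. The difference was 0.13 to 6.88, with a median of 3.60, which is 12.1-fold. Over all tested probes the median was 0.11. With the members that no W array measured placed at their lower bound, the median member difference was 3.27. In limma over the 8 arrays of both clones, with p-values adjusted by Benjamini-Hochberg over 17286 probes and a limit of 1.5-fold, 69 members were called higher in clone 16, none lower, and 81 were not called. Among all tested probes 2.48% were called higher and 2.04% lower, and among the tested probes well above background on both outlying animals the shares were 2.88% and 1.16%. Without adjustment, the limma p-value was below 0.05 in 127 members, all of them higher in clone 16, and in 2904 of all tested probes. The adjusted p of the members ran from 0.000411 to 0.952 (limma), with a median of 0.0581, so that much of the list lay close to the limit of 0.05. Without W replicate 3 or clone 16 replicate 3, 5 or 9, limma called 42, 32, 40 or 35 members. Over all tested probes the number called higher fell as well, from 429 to 283, 121, 208 or 136.

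The arrays of both clones did not overlap in 121 members, in which the lowest clone 16 animal was above the highest W animal, and overlapped in 29. Among all tested probes, 8.02% had clone 16 above W without overlap and 4.82% had it below, and the shares were 9.28% and 3.77% among those well above background on both outlying animals. Large rises were rare elsewhere on the array. A difference of at least 3 was found in 111 members and in 219 of the 17286 tested probes, so that the members with such a rise were 50.7% of all probes that had one and 74% of the list. A fall of at least 3 was found in 269 tested probes, none of them members.

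**Figure D3:**
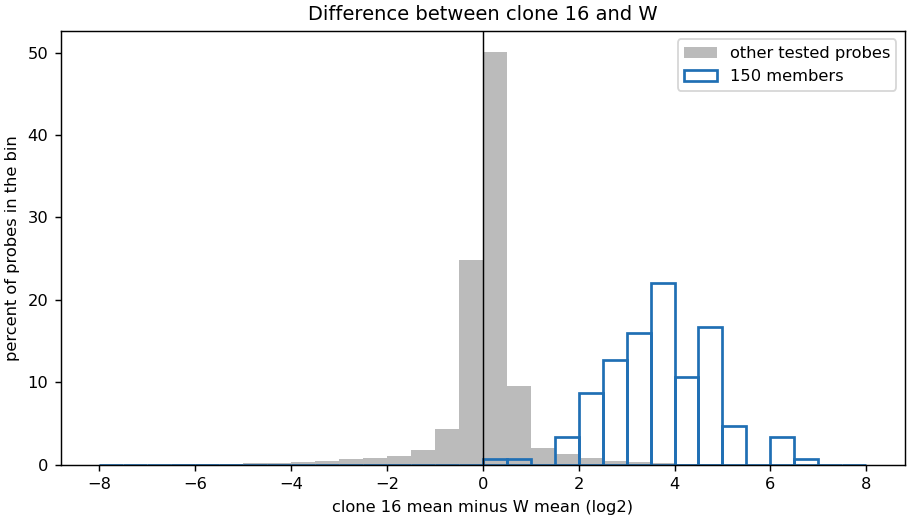
Distribution of the difference between the means of clone 16 and W (horizontal axis, log2) for the 150 members (outline) and the other tested probes (filled), as percent of the probes of each set in bins of 0.5 (vertical axis). All members lie above 0, with a median of 3.60, whereas the tested probes have a median of 0.11.

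Among the arrays whose slide is named, the direction was the same within slides in nearly the whole list. Within slide A, which held 2 arrays of each clone, all members but 1 were higher in clone 16 and the median difference was 3.80. For slide B, 2 arrays of clone 16 were set against 1 W array, and all 150 were higher, with a median of 5.13. That W array was replicate 9, with the lowest median over members of the W animals, 5.34. Neither comparison includes W replicate 7, the W animal with the highest, 8.89. Its spot coordinates match the free place on slide B, so the values for slide B leave out a W animal that probably belongs there. At slide position 4, clone 16 replicate 5 was above W replicate 7 in 123 members, with a median difference of 2.14, and the share of all tested probes was not counted. With the position as a block in limma, which leaves this pair of arrays as the only comparison within a position, 29 members were called. Among all 17286 tested probes, this fit called 498 higher and 242 lower, against 429 and 352 without the block. The fit with the position block was chosen after the data were seen. Since the other W arrays lay at position 1 and the other clone 16 arrays at positions 2 and 3, the clone and the position cannot be told apart for them. Over all 16 arrays, limma called none of the members (91 with an unadjusted p below 0.05, and a lowest adjusted p of 0.0784). The choice of members had made the spread of T+ and clone 17 wide, and this spread enters that model. The share called among all tested probes fell as well, from 2.48% to 0.127% higher and from 2.04% to 0.839% lower. The cause of these losses was not tested.

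The members varied more among W animals than among those of clone 16, as most tested probes did. The SD over the 4 animals had a median of 0.542 in clone 16 and 1.75 in W and was larger in W for 122 members. Over all tested probes these medians were 0.224 and 0.406, and W had the larger SD in 76.5%. The W animals fell into the same order in most of the list. Replicates 5 and 7 were both above replicates 3 and 9 in 117 members, an order that held in 14.3% of all tested probes. The opposite order held in 3 members and in 28.3% of tested probes. Replicate 7 was the highest W animal in 100 members and replicate 5 in 34, and replicate 9 was the lowest in 81 and replicate 3 in 54. Of the 117 members in this order 39 were called, and of the other 33 members 30 were called.

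Members also differed in how many W animals had a measurable signal, which is itself a part of the difference being called. No W array was well above background for 30 members, of which 27 were called, and all 4 were so for 57 members, of which 16 were called. Between these, the signal was well above background on 1, 2 and 3 W arrays in 10, 32 and 21 members, of which 9, 11 and 6 were called. For the 30 members that W did not measure, clone 16 was higher by a lower bound whose median was 5.31-fold and whose highest value was 35.6-fold. For this bound, the mean of clone 16 was set against the dimmest signal marked well above background on each W array, or against the member's own signal if this was brighter. To be tested, a probe had to be brighter on at least 4 arrays than 95 percent of the negative control spots. Of the 150 members, 122 would have passed without the arrays of clone 16, and among these the median difference was 3.54, 93 did not overlap and 44 were called. The other 28 passed only with the arrays of clone 16, which by itself favours a higher value there, and 25 of them were called.

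Among called members without overlap, the largest fitted difference was that of the member of rank 121, probe CUST_35686_PI429715507. Its size, like that of the next members, rests on W arrays not well above background, and without W replicate 5 it was 6.20, below the 6.50 of rank 5 and the 6.44 of rank 33. Its fluorescence was 13.23, 13.30, 10.50 and 13.22 in clone 16 replicates 3, 5, 7 and 9 and 9.65, 3.64, 5.75 and 3.70 in those of W. Replicate 3 was the only W array well above background, and clone 16 replicate 7 was lower than the others of its clone, but the groups did not overlap. The means were 12.56 ± 1.37 and 5.69 ± 2.82 (SD, n = 4), and the difference was 6.88 (SE 1.37, adjusted p = 0.0334, limma). This member was bright in clone 17 replicates 3 and 5, at 9.96 and 13.73, and in T+ replicate 5, at 12.72, and at background, between 3.63 and 3.66, in the 5 other animals of these clones. Its call was lost in 12 alternatives. Among these were a fit with the slide as a block, which left out W replicate 7 (adjusted p = 0.0519, limma), and the fits without a single array. The arrays concerned were W replicates 5 and 9 and clone 16 replicates 3, 5 and 9 (adjusted p = 0.0691 to 0.121, limma).

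The member of rank 122, probe CUST_24457_PI429715507, was well above background on no W array. It had 11.32, 12.72, 8.50 and 11.37 in clone 16 replicates 3, 5, 7 and 9 and 4.95, 3.63, 5.88 and 3.63 in W. It was at least 30.1-fold higher in clone 16, with a fitted difference of 6.46 (SE 0.914, adjusted p = 0.0107, limma). The lowest clone 16 animal was again replicate 7, still above all W animals. In clone 17 replicate 3 it had 7.72, between the 11.49 of replicate 5 and the 3.68 and 3.66 of replicates 7 and 9, and in T+ it had 12.12 in replicate 5 and 3.63 to 3.69 in the others. The call was lost without clone 16 replicate 3 or 9 (adjusted p = 0.0542 and 0.0509, limma), without the background filter (0.0604) and with the replicate number as a block (0.0955).

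In the members of ranks 33, 5 and 74, with the next largest fitted differences, all clone 16 animals were at 9.62 or above and all W animals at 6.99 or below. The member of rank 33 had 12.02, 11.69, 10.08 and 11.25 in clone 16 and 6.10, 4.97, 3.65 and 4.71 in W, and differed by 6.40 (SE 0.583, adjusted p = 0.00227, limma). The member of rank 5, measured on no W array, had 11.62, 11.85, 10.17 and 11.34 in clone 16 and 4.08, 6.10, 6.29 and 3.87 in W, a rise of at least 35.6-fold (adjusted p = 0.00329, limma). The member of rank 74 had 12.21, 12.33, 9.62 and 12.62 in clone 16 and 6.58, 4.59, 6.99 and 4.08 in W, and differed by 6.13 (SE 0.879, adjusted p = 0.0113, limma). In all of them replicate 7 was again the lowest animal of clone 16. In T+ replicate 5 these members had 12.36, 11.55 and 12.80 and in clone 17 replicate 5 they had 11.22, 11.60 and 11.08. Clone 17 replicate 3 was intermediate, at 5.99, 5.03 and 6.79, and the other 5 animals of these clones lay between 3.61 and 4.25. The call of rank 33 was kept in every alternative that used only the arrays of both clones, and that of rank 5 in all of these but the position block (adjusted p = 0.0691, limma). That of rank 74 was lost without clone 16 replicate 3 or 9 (adjusted p = 0.0568 and 0.0509, limma), without the background filter (0.0631), with the replicate block (0.0952) and with the position block (0.0851).

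**Figure D4:**
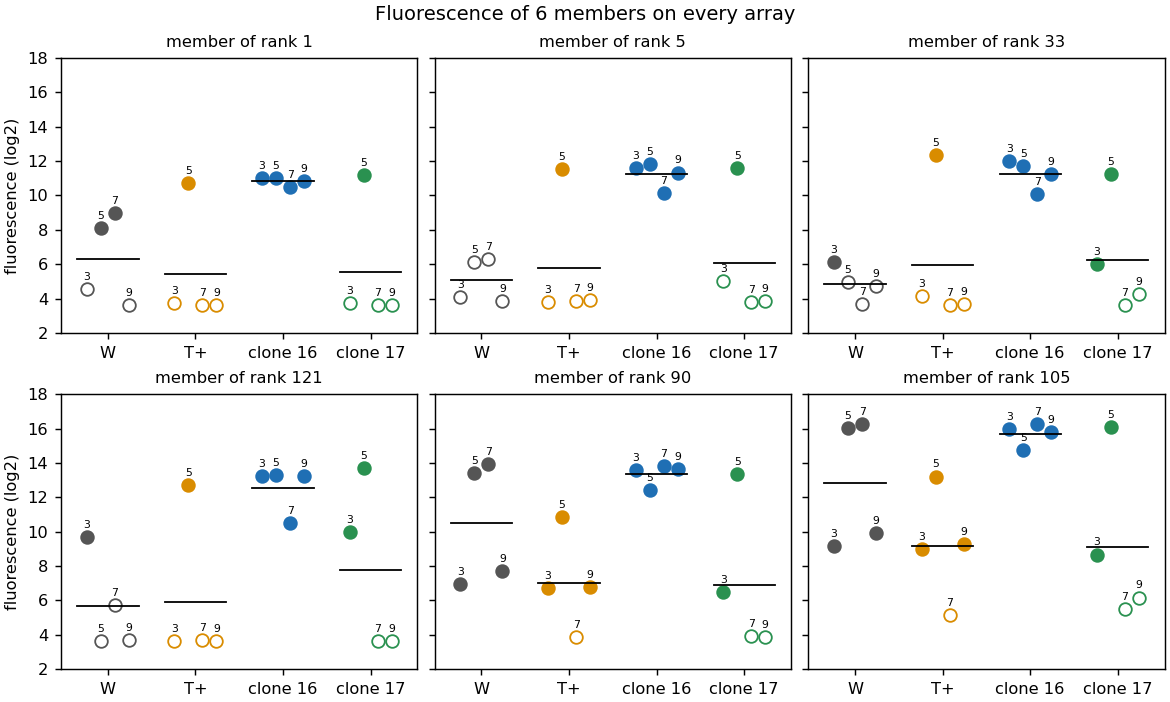
Log2 fluorescence of 6 members (panels) in every animal, by clone, with the replicate number beside each point, the clone mean as a line, and open points where the probe was not well above background. Clone 16 is high in all panels, and the W animals 5 and 7 are low in ranks 33 and 121 but reach the level of clone 16 in ranks 90 and 105.

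Of the 5 members at the top of the ranking, ranks 4 and 5 were called and ranks 1 to 3 were not. At rank 1, the values were 11.01, 11.03, 10.48 and 10.81 in clone 16 and 4.58, 8.08, 8.97 and 3.65 in W. At rank 2 they were 13.16, 12.70, 12.58 and 12.49 in clone 16 and 4.28, 10.64, 10.52 and 5.57 in W. At rank 3 they were 13.73, 13.24, 13.02 and 13.15 in clone 16 and 5.14, 11.64, 11.69 and 6.19 in W. In each, W replicates 5 and 7 came within about 3 log2 units of clone 16 while replicates 3 and 9 lay far below, and the groups did not overlap. In T+ replicate 5 they had 10.73, 11.24 and 12.23, in clone 17 replicate 5 they had 11.17 to 12.57, and the other animals of these clones lay between 3.63 and 5.75, with no array well above background. Their differences from W of 4.52, 4.98 and 4.62 had SEs of 1.14, 1.45 and 1.53 and missed the limit (adjusted p = 0.0724, 0.114 and 0.164, limma). Without W replicate 7 the first of them passed it (adjusted p = 0.0235, limma). The member of rank 4 was called, with 10.24, 10.04, 9.83 and 10.29 in clone 16, 3.63, 6.19, 7.19 and 3.64 in W and a difference of 4.93 (SE 0.802, adjusted p = 0.0166, limma), and its call was lost without clone 16 replicate 3, 5 or 9 (adjusted p = 0.0556 to 0.0705, limma), without the background filter (0.086), with the replicate block (0.0912) and with the position block, where the difference was 2.84 (0.304).

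The 3 members with the widest range in W were bright in some wild type animals. At rank 105 the values were 9.14, 16.01, 16.27 and 9.90 in W and 15.97, 14.73, 16.24 and 15.82 in clone 16. That of rank 145 had 6.03, 10.79, 10.15 and 3.67 in W and 9.28, 10.43, 9.64 and 10.24 in clone 16. That of rank 90 had 6.95, 13.40, 13.93 and 7.71 in W and 13.61, 12.44, 13.81 and 13.63 in clone 16. In these, W replicates 5 and 7 lay within or above the range of clone 16, and none was called, with differences of 2.86, 2.24 and 2.88 (SE 1.70, 1.5 and 1.63, adjusted p = 0.471, 0.535 and 0.448, limma). Within slide position 4, where W replicate 7 was above clone 16 replicate 5, the members of ranks 105 and 90 differed by -1.54 and -1.49. In T+ replicate 5 these 2 members had 13.20 and 10.83, which is below every clone 16 animal, while in clone 17 replicate 5, at 16.09 and 13.35, they were within the range of clone 16. The dim T+ and clone 17 animals had 5.14 to 9.25 at rank 105 and 3.83 to 6.75 at rank 90, so that W replicates 3 and 9 were above them at rank 90 and replicate 9 was at rank 105.

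Such members were not isolated, and the list held 2 patterns within clone 16, which were seen in the data and are given as a description. Replicate 7 was the lowest clone 16 animal in 88 members and replicate 5 in 50, against 10 for replicate 9 and 2 for replicate 3. The same count was not made over all tested probes. The overlap, the calls and the order of W replicate 7 and clone 16 replicate 5 depend in part on the values that make this split. In the 50 members with replicate 5 lowest, the median in W replicates 3, 5, 7 and 9 was 6.91, 10.57, 11.03 and 6.43, and in clone 16 it was 11.98, 11.13, 11.81 and 11.77. W replicates 5 and 7 were above the other W animals in 49 of these 50. They held 27 of the 29 members in which the clones overlapped, and 5 of them were called. W replicate 7 was above clone 16 replicate 5 in 27.

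In the 88 members with clone 16 replicate 7 lowest, the median in W replicates 3, 5, 7 and 9 was 5.53, 6.91, 7.67 and 4.29, and in clone 16 it was 10.96, 11.07, 9.71 and 10.97. Here 61 members were called and the clones overlapped in 1. No W array was well above background in 27 of them, and W replicate 7 was above clone 16 replicate 5 in none. The median difference between clone 16 and W was 3.93 in these and 2.87 in the 50 others. T+ replicate 5 was also unlike in both sets, with a median of 10.53 in the 50, where it was below every clone 16 animal in 47 members, and of 10.76 in the 88, where it was so in 10. Clone 17 replicate 5 had medians of 12.10 and 10.91, close to the clone 16 animals in both.

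Across the 150 members, the difference between clone 16 replicates 7 and 5 rose with that between W replicates 7 and 3, with Pearson's r of 0.588 and Spearman's rho of 0.603. Across all tested probes the values were 0.110 and 0.0162. Both correlations are across probes, which share the arrays and are not independent replicates. The first difference ran from -4.76 to 2.93, with a median of -0.47, and the second from -3.91 to 7.13, with a median of 2.67. Clone 16 replicate 5 and W replicate 7 lay at the same slide position, and clone 16 replicate 7 and W replicate 3 at positions 2 and 1. The part of the position in this relation was not tested.

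**Figure D5:**
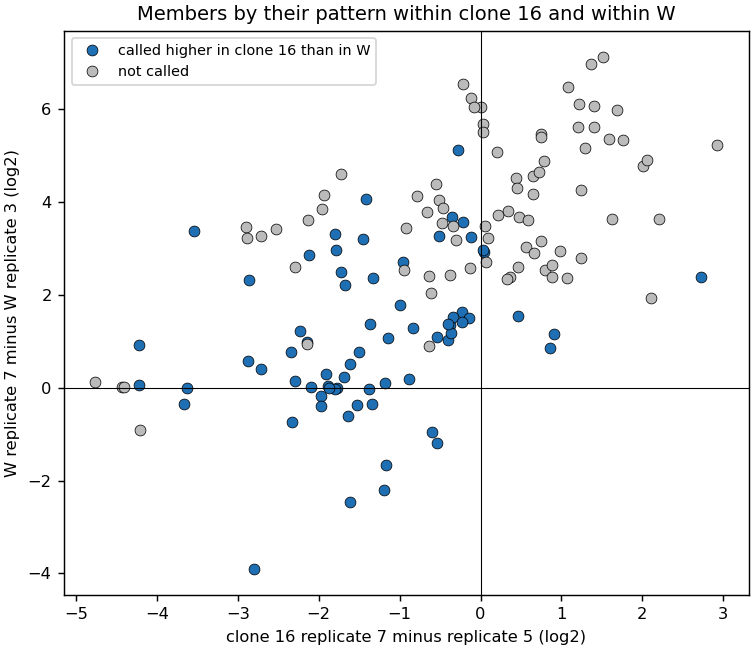
Each point is a member, placed by clone 16 replicate 7 minus replicate 5 (horizontal axis, log2) and W replicate 7 minus replicate 3 (vertical axis, log2), and filled in blue where it was called higher in clone 16 than in W. Called members lie mostly to the left of 0 on the horizontal axis. Of the 69 called, 39 had W replicates 5 and 7 above replicates 3 and 9 and so lie above 0 on the vertical axis. Members in which both differences are above 0 were mostly not called.

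Set beside clone 16, the outlying animals differed from each other. T+ replicate 5 was below the range of the 4 clone 16 animals in 66 members, within it in 59 and above it in 25, and clone 17 replicate 5 was below it in 11, within it in 78 and above it in 61. T+ replicate 5 was above every W animal in 117 members and clone 17 replicate 5 in 142. Members were chosen for high values in these same animals, which by itself favours a place above W, so these counts are a description only. How many of all tested probes had either animal above every W animal was not counted. The smallest difference between clone 16 and W was found in a member that was bright on every array. The member of rank 141 was well above background on all 16 arrays, with 14.83, 16.75, 16.75 and 15.26 in W and 16.30, 14.88, 16.98 and 15.94 in clone 16, and its difference was 0.13 (SE 0.590, adjusted p = 0.952, limma). In the dim T+ and clone 17 animals it lay between 8.33 and 11.30, below every W animal. It was chosen after its values were seen, as the lower end of the range.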

How the data were processed

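The fluorescence of 16 Agilent one-colour arrays was analysed, 4 for each of 4 clones. The authors deposited, for every spot, the intensity written by Agilent Feature Extraction (version 10.5 in the submitters' processing notes), among them a processed signal from which background had been subtracted but which had not been brought to a common scale across arrays, together with marks for spots well above background and for outliers. A table of log2 values deposited beside these had been made by quantile normalization and subtraction of each probe's median over all arrays. The deposited log2 values were used only to choose the members and as an alternative. Groups were taken from the sample labels.

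Processed intensities were floored at 1, outlier spots set to missing, repeated spots averaged on the log2 scale and the 16 arrays quantile normalized. Of 51424 gene probes, 17286 were tested, which were brighter than 95 percent of the 2840 negative control spots on 4 arrays or more. limma 3.58.1 in R 4.3.3 was fitted to the 4 W and 4 clone 16 arrays, two-sided, with Benjamini-Hochberg adjustment over tested probes. The arrays of T+ and clone 17 were kept out because the choice of members makes their spread wide. A call needed an adjusted p below 0.05 and a 1.5-fold change. The fit was tested on simulated data.

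Members named with values were the 5 of highest rank, the 5 largest rises among called members without overlap, and the 3 with the widest W range. Rank 141 was added after its values were seen and was not followed through the alternatives. No member was lower. Gene lists by annotation could not be applied, since no source used here pairs the members with genes, and the probe of the targeted gene was not analysed here. The members and lists were chosen with earlier results of these data known. Alternatives were other scalings, background corrections and filters, outlier spots kept, models over 16 arrays, the methods' ANOVA with Dunnett's test (mvtnorm 1.3.3), fold limits, array weights, a variance trend, slide, replicate number and slide position as blocks, single arrays left out, and other lengths and scalings of the ranking. The fit with the slide as a block left out W replicate 7, whose slide is not given. Same-numbered animals of W and clone 16 did not deviate together (r over tested probes of 0.112, -0.0404, 0.0649 and -0.25), so the arrays were not paired.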

Additional observations from a re-analysis of the deposited data

Results flagged for a closer look

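In 4 of the 28 groups of 4 animals examined, the gap between an extreme animal and its nearest neighbour took up more of the group's range than Dixon's critical value at 95% allows, where chance gives about 1 group in 20. The median over members on T+ replicate 5, 10.47, had a ratio of 0.926, which the choice of members fixed. Clone 16 replicate 7 was low for the members of rank 121 (ratio 0.971, log2 fluorescence 10.50) and rank 74 (ratio 0.863, 9.62). Clone 16 replicate 5 was low for the member of rank 90 (ratio 0.851, 12.44). Replicates 7 and 5 were also the lowest animals of clone 16 in 88 and 50 of the 150 members, a count not made over all tested probes.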

How the results depend on the processing

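The number of members called higher in clone 16 was 69. It was 32 without a background filter, 29 with slide position as a block, 33 and 137 when the list was shortened to 75 or lengthened to 300 probes, and 32 to 102 with single arrays left out, the lowest without clone 16 replicate 3. It was 42, 40 and 35 without W replicate 3 and clone 16 replicates 5 and 9. With all 16 arrays in limma and by ANOVA with Dunnett's test, it was 0 (91 and 49 members at an unadjusted p below 0.05). The count over all tested probes, 781, was 215 without the filter, 167 with 16 arrays, 67 by ANOVA with Dunnett's test, 1346 with array weights and 169 to 1117 with single arrays left out. With slide position as a block it was 740. With the replicate block, 27 members and 140 of all tested probes were called, and 1 of 4 W arrays correlated best with its own number in clone 16. The median difference of 3.60 was 2.14 with position as a block and 2.73 to 4.24 otherwise, the highest with the slide as a block and without W replicate 7. Members without overlap, 121, numbered 62 and 231 in the lists of 75 and 300 and 121 to 136 otherwise. No member was called lower in any alternative. For the 12 named members, the call was lost in 38 and gained in 5 of 288 values, and ranks 90 and 105 turned to -1.49 and -1.54 with position as a block, which leaves W replicate 7 against clone 16 replicate 5. Only ranks 4, 5, 33, 74, 121 and 122, called in the main fit, could lose a call, so a loss was not possible in all 288 values. More probes were tested without the filter and fewer arrays entered when arrays were left out, and the cause of the other changes was not tested. Signal over background limits the values of the 30 members that no W array measured.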
